A study of Homo sapiens with 6 samples.

Results

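The genes described here encode the proteasome: its subunits, the activators that dock on it, its inhibitor and the chaperones that assemble it. They were taken as every symbol in the authors' deposited comparison table that starts with PSMA, PSMB, PSMC, PSMD, PSME, PSMF or PSMG followed by a number alone, together with POMP. The rule matched 65 gene identifiers under 49 symbols, out of 63677 genes in the count table. The 16 further identifiers repeat symbols already held, and 1 of them, a second PSMA2 identifier, had any reads (5 over all samples). Of the 49 symbols, 47 had enough reads to be tested. PSMA8, a testis form of a core subunit, had 0 reads in every sample. PSMB11, the thymoproteasome subunit, had 1 read in 1 DMSO sample.

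RNA came from RPMI-8402, a human line of T cell acute lymphoblastic leukaemia (T-ALL), all of it stably expressing Cas9 and labelled with the genotype MYC_KO. In 3 samples (DMSO) the cells received the solvent alone, and in 3 samples (DOX) doxycycline switched on guide RNAs against MYC, a transcription factor that promotes growth and ribosome production, for 72 hours. The labels name no sample given doxycycline without guides, so an effect of doxycycline itself cannot be told apart from one of the guides, and nothing states that the replicates came from different cultures. The p-values therefore reflect the spread between the samples at hand, and that spread may be technical. Values per sample are given in the order of replicates 1, 2 and 3. Total counts ran from 23121255 to 26214598 per sample.

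The proteasome degrades proteins that carry ubiquitin chains. Its core particle is a barrel of alpha rings around beta rings, and the proteolytic sites sit on the beta subunits PSMB5, PSMB6 and PSMB7. In lymphoid cells and under interferon these are exchanged for PSMB8, PSMB9 and PSMB10 to form the immunoproteasome, which changes the peptides made for antigen presentation. The regulatory cap holds a ring of ATPases (PSMC genes) that unfold substrates, further base subunits, and a lid that removes ubiquitin. Chaperones such as POMP and the PSMG proteins guide assembly and are not part of the finished particle.

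The checks of the samples were as follows. MYC (ENSG00000136997) was at 407 to 422 CPM (counts per 1000000 reads, scaled between libraries with edgeR's TMM) in the DMSO samples and at 431 to 459 CPM in the DOX samples. Its log2 fold change was 0.09 with a standard error (SE) of 0.049 (edgeR quasi-likelihood test, Benjamini-Hochberg adjusted p = 0.160), 0.14 with upper-quartile scaling (edgeR adjusted p = 0.0357), and scaling by library size alone gave 0.14 as well (0.0281). The count of MYC was therefore not lower, and since small insertions or deletions leave most reads of a gene countable, it tests the labels only in part. A list of 15 T-ALL and thymocyte genes summed to 2681 to 2787 CPM in DMSO and 2694 to 2840 CPM in DOX, with CD3E and LCK the most abundant and CD1A, CD1B and CD8A too low to test. Within it CD7 rose by 0.48 and CD5 by 0.23, CD3G fell by 0.24, and the other 9 tested genes did not pass (edgeR). With the correction for GC content and transcript length described below, CD3G did not pass (-0.07, edgeR adjusted p = 0.235). In that fit 3 genes of the list passed as higher, CD7 and CD5 among them, and 0 as lower. Of markers of other cells, 6 B cell genes summed to 11.6 to 12.9 CPM in DMSO and 16.3 to 17.2 CPM in DOX (MS4A1 at 0), and 6 myeloid genes to 1.07 to 1.27 and 2.17 to 2.21 CPM (CD33 at 0). The 5 fibroblast genes summed to 39.9 to 40.3 and 47.3 to 53.0 CPM, almost all of it COL1A1, with COL1A2, COL3A1 and LUM at 0, and 5 thymic epithelial genes to 0.0437 to 0.124 and 0.0748 to 0.266 CPM, with FOXN1 and EPCAM at 0. The part of these markers in the results below was not tested.

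Proteasome genes were lower in the DOX samples across nearly every class. Of 47 tested members 34 fell (edgeR quasi-likelihood test, adjusted p under 0.05), where 15.5% of all 15492 tested genes were called lower. None rose in edgeR, where 13.8% of all genes did, and at an unadjusted p under 0.05 the count of higher members was 0 as well. DESeq2 called 34 members lower and 0 higher, beside 15.6% and 9.79% of the genes it tested. The changes were small, with a median log2 fold change of -0.21, so that the median gene fell by 13.4%, beside a median of 0.00 over all tested genes. For 36 members all 3 DOX values lay below all 3 DMSO values, against 21.0% of all tested genes, and for 0 members did they all lie above, against 20.7%. The authors' deposited table calls the same 34 members lower and 0 higher at an adjusted p-value under 0.05, beside 15.6% and 9.79% of its genes. It comes from DESeq2 on the same counts and gives the same calls as the DESeq2 fit above, so it is not a separate check. In these bulk samples, fewer cells of a kind and less RNA per cell cannot be told apart.

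The size of these falls depended on a correction for the base composition of genes. Across 46 members with a known transcript, the log2 fold change followed GC content (Pearson r = 0.44, Spearman rho = 0.43), as it did across 15036 tested genes (Pearson r = 0.34, Spearman rho = 0.41). Across all these tested genes it also fell with mean log2 CPM (Pearson r = -0.31, Spearman rho = -0.27). Across the 46 members it did not (Pearson r = 0.15, Spearman rho = 0.16). The shares of all genes given beside the members were not matched for abundance. These coefficients describe genes that share libraries and are not independent. When a trend with GC content and transcript length was fitted to each library and removed, 20 of 46 members fell and 0 rose, beside 11.4% and 10.8% of all genes, and the median was -0.10. Of these 20 members, 19 were also called lower without the correction, and 14 members lost their call. Such a correction takes out biological and technical trends with GC content alike. The cause of the trend was not tested.

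**Figure D1:**
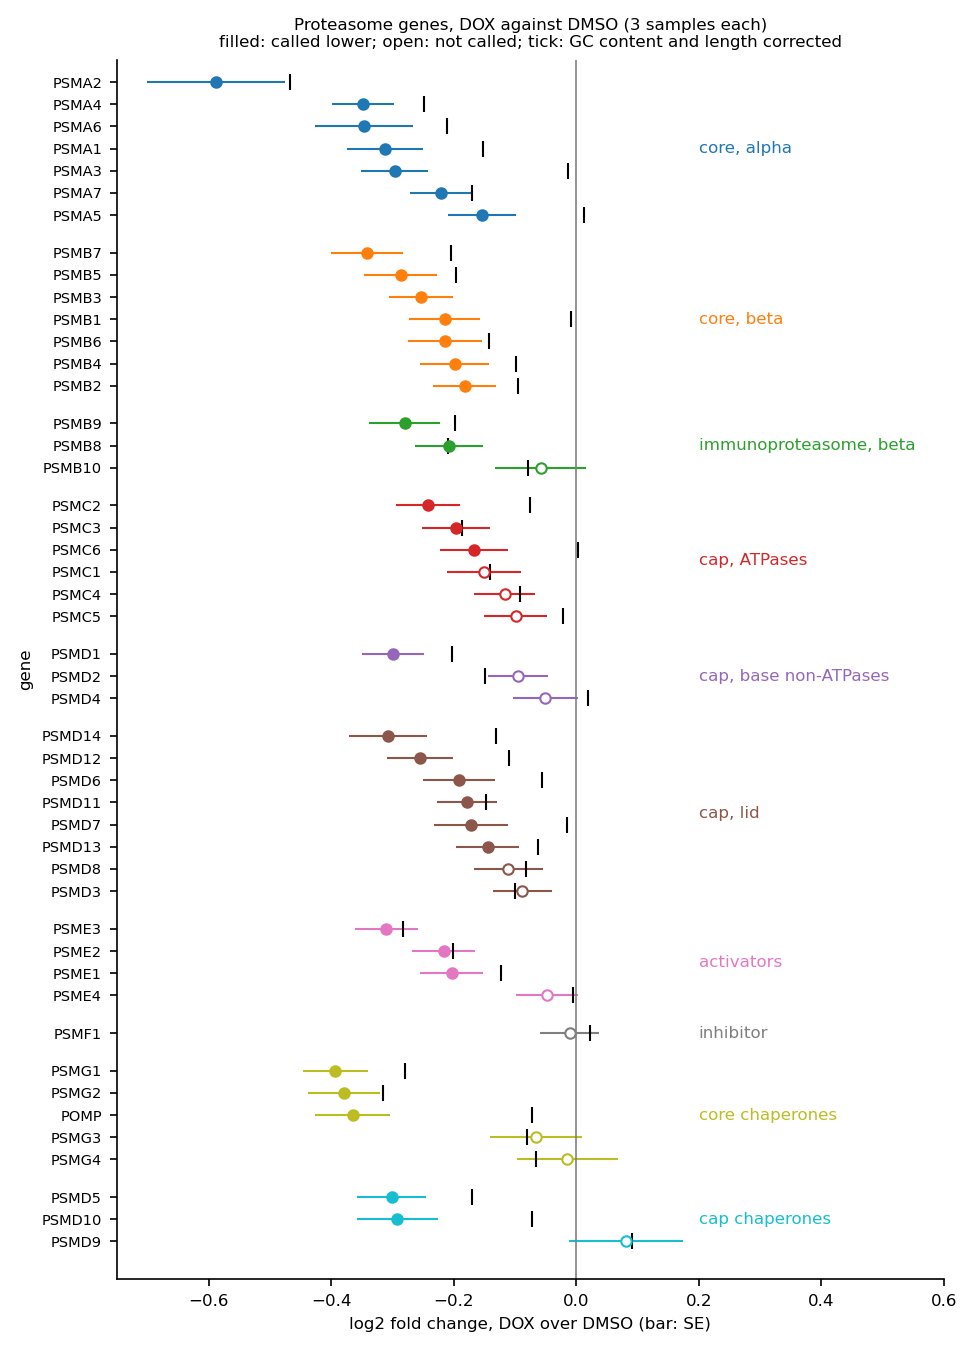
Log2 fold change (x axis, DOX over DMSO, 3 samples each) of the 47 tested proteasome genes by class, with SE bars. Filled points were called lower by edgeR, open points were not, and black ticks give the value with GC content and length corrected. All points except PSMD9 lie below 0, and most ticks lie nearer 0 than their points.

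**Figure D2:**
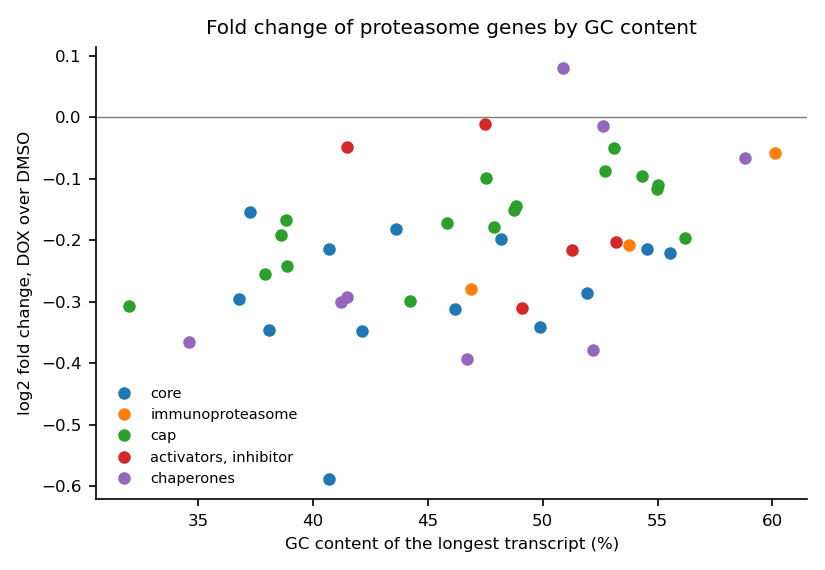
Log2 fold change (y axis) of the 46 proteasome genes with a known transcript against the GC content of their longest transcript in percent (x axis), coloured by class. Members of high GC content lie nearer 0 (Pearson r = 0.44 over 46 genes).

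The core particle was the class in which each tested gene passed. All 7 tested alpha subunits and all 7 constitutive beta subunits fell, beside 15.5% of all tested genes. Their medians were -0.31 and -0.21 on the log2 scale. With GC content and length corrected 8 of 13 core genes fell, beside 11.4% of all genes, and the core median was -0.15. PSMB3 had no transcript to correct by. Summed over the 14 genes, the core stood at 1444, 1554 and 1398 CPM in DMSO and at 1270, 1232 and 1207 CPM in DOX. The groups did not overlap, and the DOX mean was 0.844 times the DMSO mean.

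Alpha subunits form the outer rings and the gate through which substrates enter. PSMA4 (ENSG00000041357) was at 169, 170.5 and 157 CPM in DMSO and at 130, 134 and 125 CPM in DOX. All DOX values were below all DMSO values, and PSMA4 fell by 0.35 (SE 0.051; edgeR adjusted p = 1.86e-05), or by 0.25 with the correction (edgeR adjusted p = 0.000555). PSMA2 had the largest fall of any member, by 0.59 (SE 0.112; edgeR adjusted p = 0.000348), from 10.4, 8.14 and 8.91 CPM to 5.77, 6.86 and 5.68 CPM. Its count is uncertain, because in GENCODE 29 it shares 14.6% of its exon bases with a protein-coding gene on the same strand, the further PSMA2 identifier named above, and reads that fit both may not have been counted for either. PSMA1 (24.7% of exon bases) and PSMA6 (14.1%) also overlap a gene on their strand, and fell by 0.31 and 0.35. PSMA5 changed least, from 76.9, 79.4 and 70.3 CPM to 70.0, 67.3 and 66.5 CPM, a fall by 0.15 (SE 0.056; edgeR adjusted p = 0.0388). Leaving out DMSO replicate 1 (edgeR adjusted p = 0.128), DMSO replicate 2 (0.126), DOX replicate 2 (0.103) or DOX replicate 3 (0.141) ended that call, and the value was 0.01 with the correction. PSMA3 and PSMA7 fell by 0.30 and 0.22. With the correction PSMA3 stood at -0.01 (edgeR adjusted p = 0.867).

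The catalytic beta subunits of the constitutive core fell together. PSMB7, which carries the trypsin-like site, was at 140, 163 and 136 CPM in DMSO and at 119, 118 and 110 CPM in DOX, and fell by 0.34 (SE 0.059; edgeR adjusted p = 0.000130). PSMB5, with the chymotrypsin-like site that bortezomib binds, went from 42.6, 43.2 and 40.9 CPM to 34.1, 33.6 and 36.1 CPM, and fell by 0.29 (SE 0.060; edgeR adjusted p = 0.000761). PSMB6, with the caspase-like site, went from 89.3, 96.5 and 81.5 CPM to 80.8, 72.4 and 77.3 CPM, and fell by 0.21 (SE 0.060; edgeR adjusted p = 0.00833). For each of these genes the DOX values lay below the DMSO values, for PSMB6 by under 1 CPM, and the PSMB6 call was lost without DOX replicate 2 (edgeR adjusted p = 0.0579). With the correction PSMB7, PSMB5 and PSMB6 fell by 0.20, 0.20 and 0.14.

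Before the correction, the beta subunits that lack a proteolytic site changed by similar amounts. Their difference from the catalytic subunits was not tested. PSMB3, PSMB1 and PSMB4 fell by 0.25, 0.21 and 0.20. PSMB2 changed least, from 249, 278 and 254 CPM in DMSO to 237, 230 and 221 CPM in DOX, a fall by 0.18 (SE 0.052; edgeR adjusted p = 0.00950). With the correction PSMB1, PSMB2 and PSMB4 did not pass (-0.01, -0.10 and -0.10). The PSMB2 call was lost without DOX replicate 3 (edgeR adjusted p = 0.0753), and that of PSMB4 without DMSO replicate 2 (0.0514) or DOX replicate 3 (0.0886).

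Of the inducible subunits, PSMB8 and PSMB9 fell and PSMB10 did not pass. PSMB9, which takes the place of PSMB6, was at 44.9, 45.8 and 44.1 CPM in DMSO and at 36.6, 36.1 and 38.4 CPM in DOX, and fell by 0.28 (SE 0.058; edgeR adjusted p = 0.000749). PSMB8, which takes the place of PSMB5, went from 62.0, 66.7 and 60.7 CPM to 55.3, 54.2 and 54.6 CPM, and fell by 0.21 (SE 0.055; edgeR adjusted p = 0.00611). The groups did not overlap for either gene, and with the correction they fell by 0.20 and 0.21. PSMB10, which takes the place of PSMB7, was at 22.2, 24.1 and 19.6 CPM in DMSO and at 21.7, 20.5 and 21.2 CPM in DOX, and its groups overlapped (log2 fold change -0.06, SE 0.075; edgeR adjusted p = 0.602). PSMB10 shares 34.8% of its exon bases with another gene on its strand in GENCODE 29, so its level is uncertain, and PSMB8 shares 20.6% with its antisense gene.

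**Figure D3:**
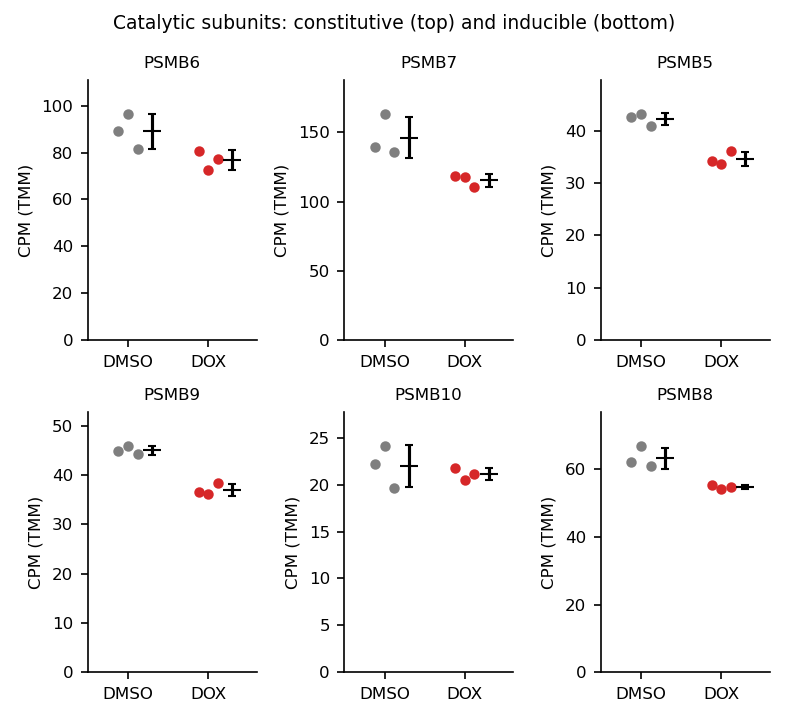
CPM (y axis, from 0) of the 3 constitutive catalytic subunits (top) and, below each, the inducible subunit that replaces it, in 3 DMSO samples (grey) and 3 DOX samples (red), with mean and SD bars. The groups separate for all of these genes except PSMB10.

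The balance of inducible to constitutive subunits was compared sample by sample as a difference of log2 CPM. This difference does not depend on the scaling between libraries, but it was not corrected for GC content. PSMB10 over PSMB7 was at -2.65, -2.76 and -2.78 in DMSO and at -2.44, -2.52 and -2.38 in DOX. Every DOX value was higher than every DMSO value, with a difference of 0.29 (exact permutation test, two-sided, p = 0.10; adjusted over 3 ratios 0.30). PSMB8 over PSMB5 was at 0.54, 0.63 and 0.57 in DMSO and at 0.69, 0.69 and 0.60 in DOX, a difference of 0.08 (exact permutation p = 0.20; adjusted 0.30), and its groups overlapped. PSMB9 over PSMB6 was at -0.99, -1.07 and -0.88 in DMSO and at -1.14, -1.001 and -1.01 in DOX, a difference of -0.07 (exact permutation p = 0.40; adjusted 0.40), with overlap as well. With 3 samples against 3 the smallest p this test can give is 0.10, so no ratio could pass. With the correction the log2 fold changes of PSMB10 and PSMB7 were -0.08 and -0.20, which lie nearer each other. Those of PSMB8 and PSMB5 were then -0.21 and -0.20, and those of PSMB9 and PSMB6 were -0.20 and -0.14. The PSMB10 ratio also rests on an uncertain count, because of the exon bases that PSMB10 shares.

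Levels of different genes were compared only per kilobase of exon. In DMSO, PSMB5 stood at 23.9 ± 0.662 and PSMB8 at 21.1 ± 1.06 CPM per kilobase (SD, n = 3 each). No order is read from this pair, because it depends on the exon length taken. PSMB8 also shares 20.6% of its exon bases with its antisense gene. PSMB6 stood at 61.5 ± 5.16 and PSMB9 at 14.6 ± 0.273 CPM per kilobase (SD, n = 3 each), so in this pair the constitutive form was the more abundant. PSMB7 stood at 81.9 ± 8.32 and PSMB10 at 11.9 ± 1.20 CPM per kilobase (SD, n = 3 each), but no order is read from this pair because of the exon bases that PSMB10 shares. Over 10 core genes with a known length and no same-strand sharing of at least 10% of exon bases, levels ran from 13.2 for PSMA5 to 95.7 for PSMB4, with a median of 42.0 CPM per kilobase. Over 17 cap genes they ran from 5.60 for PSMC1 to 80.8 for PSMC3, with a median of 23.8. PSMC1 shares 75.8% of its exon bases with a gene on the opposite strand, so this lowest value is uncertain. Exon lengths were from GENCODE 29 rather than from the annotation behind the counts, which limits this comparison.

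Of 17 cap genes 10 fell and 7 did not pass, with a median of -0.17 on the log2 scale and values from -0.31 to -0.05. For 12 all DOX values lay below all DMSO values, beside 21.0% of all tested genes. Summed over these genes the cap stood at 2253, 2310 and 2150 CPM in DMSO and at 2041, 2011 and 2011 CPM in DOX, a DOX mean of 0.903 times the DMSO mean. The difference between core and cap was not tested. The count of 10 cap genes, beside 15.5% of all genes, was 6 without DMSO replicate 1 (beside 11.6%) and 5 without DOX replicate 2 (beside 13.0%). It was 6 when scaled by upper quartiles (beside 10.2%), 6 by library size alone (beside 10.4%) and 4 with GC content and length corrected (beside 11.4%).

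Among the ATPases, 3 of 6 fell, beside 15.5% of all tested genes. PSMC2 went from 85.7, 85.2 and 85.5 CPM in DMSO to 68.5, 73.8 and 74.7 CPM in DOX, a fall by 0.24 (SE 0.052; edgeR adjusted p = 0.00115). PSMC3 went from 187, 197 and 167 CPM to 167, 155 and 160 CPM, a fall by 0.20 (SE 0.055; edgeR adjusted p = 0.00874). PSMC3 was close to touching between the groups, and its call was lost without DOX replicate 2 (edgeR adjusted p = 0.0506). PSMC6 fell by 0.17, and leaving out DMSO replicate 1 (edgeR adjusted p = 0.0905), DMSO replicate 2 (0.0609), DOX replicate 1 (0.0818) or DOX replicate 2 (0.0909) ended its call. PSMC5 changed least, from 110, 107 and 105 CPM to 97.3, 97.7 and 105 CPM (log2 fold change -0.10; edgeR adjusted p = 0.149), with groups that overlapped. PSMC1 and PSMC4 did not pass either, at -0.15 and -0.12, although their DOX values lay below their DMSO values. PSMC1, PSMC5 and PSMD7 share 75.8%, 19.5% and 30.7% of their exon bases with genes on the opposite strand, so their counts are uncertain. In other classes the same limit holds for PSMA2 (19.5%), PSMG2 (13.9%), PSMG4 (13.3%) and PSMD1 (10.8%). Only PSMC3 among the ATPases fell with the correction, by 0.19, where PSMC2 stood at -0.08 and PSMC6 at 0.00.

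Of the base subunits without ATPase activity, PSMD1 fell and the ubiquitin receptor PSMD4 did not pass. PSMD1, a scaffold of the base, was at 161, 156 and 158 CPM in DMSO and at 123, 136 and 127 CPM in DOX, a fall by 0.30 (SE 0.050; edgeR adjusted p = 9.60e-05) and by 0.20 with the correction. PSMD4 was at 111, 118 and 105 CPM in DMSO and at 110, 109 and 104 CPM in DOX, with overlap (log2 fold change -0.05; edgeR adjusted p = 0.507). PSMD2, the other large scaffold, had a log2 fold change of -0.095 (edgeR adjusted p = 0.151), and passed as lower with the correction, at -0.15 (edgeR adjusted p = 0.0101).

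In the lid 6 of 8 genes fell, beside 15.5% of all tested genes. PSMD14, the metalloprotease that cuts ubiquitin chains from substrates, went from 54.5, 60.9 and 53.0 CPM in DMSO to 42.1, 46.9 and 47.2 CPM in DOX, a fall by 0.31 (SE 0.063; edgeR adjusted p = 0.000695). PSMD12 went from 70.1, 68.0 and 70.3 CPM to 55.7, 61.0 and 57.8 CPM, a fall by 0.25 (SE 0.054; edgeR adjusted p = 0.000984). The groups were apart for both genes, while PSMD3 changed least, from 309, 319 and 299 CPM to 293, 287 and 292 CPM (log2 fold change -0.09; edgeR adjusted p = 0.175). PSMD6, PSMD11, PSMD7 and PSMD13 fell by 0.19, 0.18, 0.17 and 0.14. The groups overlapped for PSMD6, with DOX replicate 1 at 76.5 CPM and DMSO replicate 3 at 76.0 CPM. PSMD11 alone of the lid fell with the correction, by 0.15, where PSMD14 and PSMD12 stood at -0.13 and -0.11. Leaving out DMSO replicate 1 (edgeR adjusted p = 0.0757), DOX replicate 2 (0.0702) or DOX replicate 3 (0.0998) ended the PSMD6 call. For PSMD7 this held for DMSO replicate 1 (edgeR adjusted p = 0.103), DMSO replicate 2 (0.0793), DOX replicate 2 (0.0680) or DOX replicate 3 (0.216). Of the fits with 1 sample left out, PSMD13 kept its call only in that without DMSO replicate 3. It had edgeR adjusted p-values of 0.126, 0.0628, 0.114, 0.0649 and 0.0919 without DMSO replicate 1, DMSO replicate 2, DOX replicate 1, DOX replicate 2 and DOX replicate 3. PSMD8, at -0.11, passed without DMSO replicate 3 (edgeR adjusted p = 0.0176).

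Chaperones of core assembly split into genes that fell by over 20% and genes that did not pass. PSMG1 and PSMG2 form a pair that gathers alpha subunits into a ring. PSMG1 was at 87.1, 86.3 and 87.9 CPM in DMSO and at 67.4, 69.0 and 62.5 CPM in DOX, a fall by 0.39 (SE 0.053; edgeR adjusted p = 7.70e-06). PSMG2 was at 43.6, 44.4 and 43.6 CPM and at 34.1, 35.0 and 32.1 CPM, a fall by 0.38 (SE 0.059; edgeR adjusted p = 4.15e-05). The partners thus changed by nearly the same amount, with groups far apart relative to their spread, and with the correction they fell by 0.28 and 0.32. POMP, which helps beta subunits join and is degraded by the finished core, went from 45.1, 52.3 and 48.8 CPM to 37.9, 37.3 and 38.3 CPM, a fall by 0.36 (SE 0.061; edgeR adjusted p = 9.35e-05). Its transcript has a GC content of 34.6%, and with the correction it stood at -0.07 (edgeR adjusted p = 0.423).

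PSMG3 and PSMG4 form the second chaperone pair of the alpha ring and did not pass. PSMG3 was at 17.4, 18.3 and 16.5 CPM in DMSO and at 15.9, 17.6 and 16.5 CPM in DOX (log2 fold change -0.07; edgeR adjusted p = 0.549). PSMG4 was at 18.3, 22.6 and 18.0 CPM and at 19.9, 18.1 and 20.3 CPM (log2 fold change -0.01; edgeR adjusted p = 0.920). The groups overlapped for both genes. These genes had lower counts than PSMG1 and PSMG2, and the difference between the pairs was not tested.

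Of the 3 chaperones of the cap base, which hold the ATPases until the ring closes, PSMD5 and PSMD10 fell and PSMD9 did not pass. PSMD5 went from 57.4, 55.3 and 58.4 CPM in DMSO to 46.2, 48.2 and 44.5 CPM in DOX, a fall by 0.30 (SE 0.057; edgeR adjusted p = 0.000293). PSMD10, known as gankyrin, went from 39.0, 36.2 and 38.8 CPM to 28.5, 33.7 and 30.9 CPM, a fall by 0.29 (SE 0.066; edgeR adjusted p = 0.00167). With the correction PSMD5 fell by 0.17 and PSMD10 stood at -0.07 (edgeR adjusted p = 0.397). PSMD9 was the only tested member with a positive value, at 10.0, 9.05 and 8.69 CPM in DMSO and 9.34, 10.3 and 9.83 CPM in DOX (log2 fold change 0.08; edgeR adjusted p = 0.550). Its groups overlapped, and it shares 14.9% of its exon bases with a gene on the same strand. In all, 5 of 8 chaperones fell, with a median of -0.30, beside 15.5% of all tested genes. With the correction 3 of 8 fell, with a median of -0.08, beside 11.4% of all genes.

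Of the activators, which cap the core without ATPases, PSME3, PSME2 and PSME1 fell and PSME4 did not pass. PSME3, the nuclear activator, was at 335, 341 and 371 CPM in DMSO and at 270, 293 and 282 CPM in DOX, a fall by 0.31 (SE 0.052; edgeR adjusted p = 8.76e-05). PSME1 and PSME2 are interferon-inducible and form a joint ring. PSME1 went from 262, 271 and 237 CPM to 227, 220 and 221 CPM, a fall by 0.20 (SE 0.052; edgeR adjusted p = 0.00438), and PSME2 from 186, 202 and 188 CPM to 173, 163 and 159 CPM, a fall by 0.22 (SE 0.051; edgeR adjusted p = 0.00236). The groups did not overlap for these genes, and with the correction PSME3, PSME2 and PSME1 fell by 0.28, 0.20 and 0.12. PSME4 was at 124, 115 and 127 CPM in DMSO and at 119, 118 and 117 CPM in DOX (log2 fold change -0.05; edgeR adjusted p = 0.521). The inhibitor PSMF1 was at 200, 207 and 204 CPM in DMSO and at 210, 197 and 200 CPM in DOX (log2 fold change -0.01; edgeR adjusted p = 0.903). Both had overlapping groups.

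**Figure D4:**
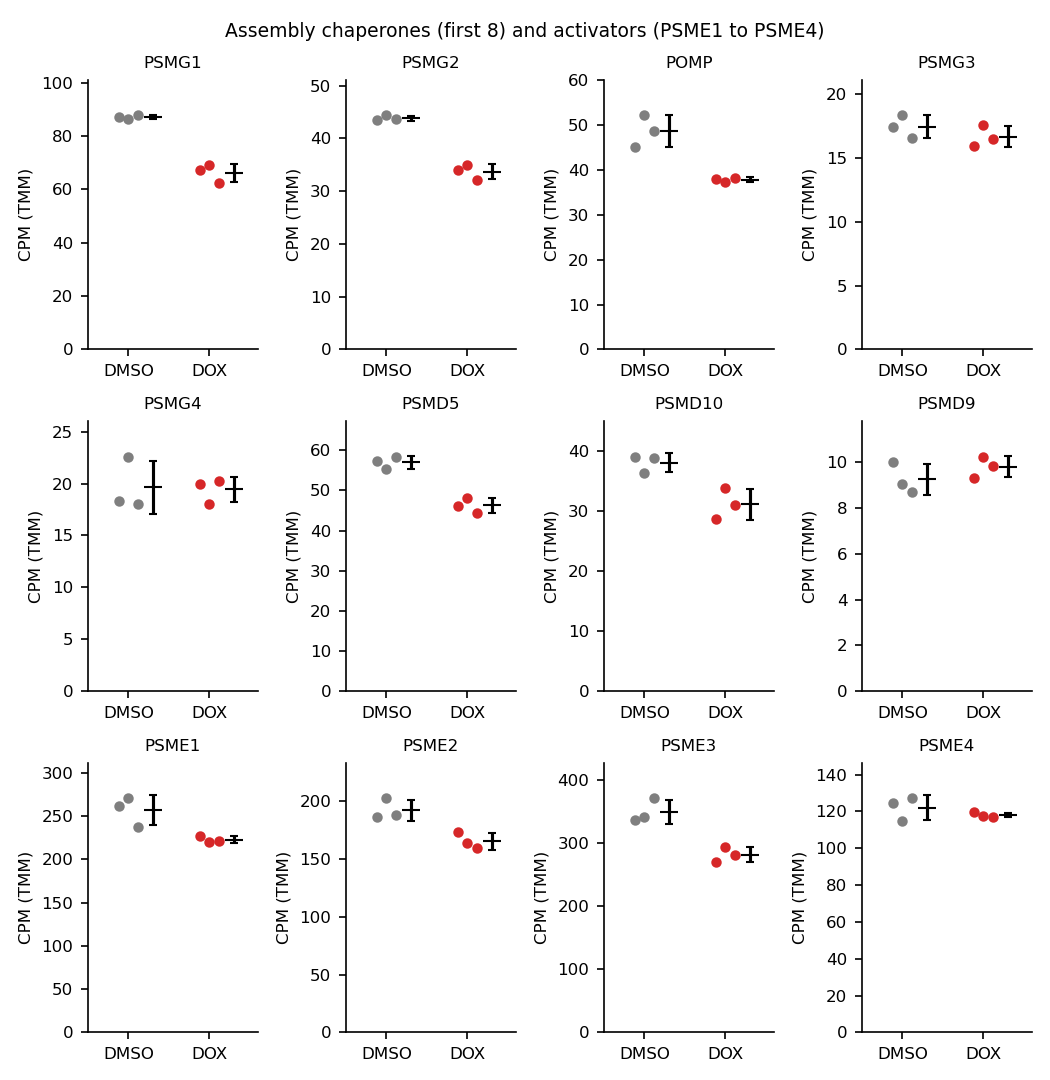
CPM (y axis, from 0) of the 8 assembly chaperones and the 4 activators in 3 DMSO samples (grey) and 3 DOX samples (red), with mean and SD bars. PSMG1, PSMG2, POMP, PSMD5, PSMD10, PSME1, PSME2 and PSME3 separate between the groups, and PSMG3, PSMG4, PSMD9 and PSME4 overlap.

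**Figure D5:**
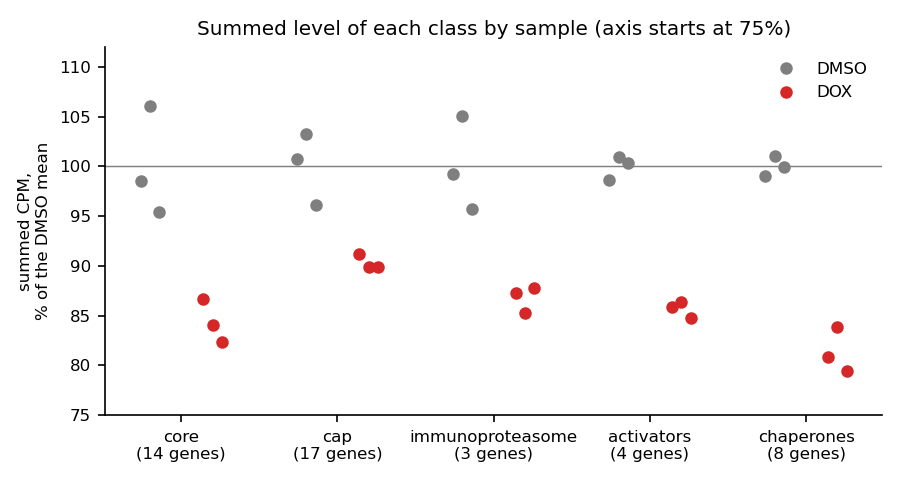
Summed CPM of each class in each of 3 DMSO samples (grey) and 3 DOX samples (red), as a percentage of that class's DMSO mean (y axis, which starts at 75). In all 5 classes every DOX sample lies below every DMSO sample, and DMSO replicate 2 is the highest sample of each class.

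The samples of a group did not spread evenly over these genes. DMSO replicate 2 held the highest value of the 6 samples for 30 of 47 members, DMSO replicate 1 for 10 and DMSO replicate 3 for 5. The lowest value fell to DOX replicate 1, 2 or 3 for 12, 15 and 16 members. All members summed to 5252, 5461 and 5120 CPM in DMSO and to 4684, 4614 and 4566 CPM in DOX, so the groups stayed apart whichever DMSO sample was taken. Without DMSO replicate 2, 29 members fell, beside 14.7% of all genes. Leaving out DMSO replicate 1 or 3 left 29 and 35 members (beside 11.6% and 14.3% of all genes), and leaving out DOX replicate 1, 2 or 3 left 32, 27 and 28 (beside 11.4%, 13.0% and 11.2%). With DMSO replicate 2 and DOX replicate 1 both left out, 31 members fell, beside 12.2% of all genes. Upper-quartile scaling gave 28 members and library size alone 29, beside 10.2% and 10.4% of all genes, and with no filter on low counts 34 fell, beside 8.34%. A term for the replicate number gave 32 members, and 19 together with the GC correction, beside 14.2% and 10.8%.

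Promoters of the members were read for sequence shared between them, and those shown hold either the letters bound by MYC or the largest called fall of a chaperone. MYC and its partner MAX bind the E-box CACGTG, and the factors NRF1 (gene NFE2L1) and NRF2 (gene NFE2L2), which induce proteasome genes, bind antioxidant response elements, searched here as TGACNNNGC, with N any base. Of 43 members with a RefSeq promoter, read on both strands over 250 bases upstream of the start, 3 held CACGTG: PSME3 and PSMB3, which fell, and PSMD9, which did not pass. Counted over promoters, that was 5.77% of 52, beside 6.34% of 35116 RefSeq promoters. TGACNNNGC was in 13 of the 43 members and in 25.0% of the 52 promoters, beside 10.9% of all, with 9 of 30 members that fell and 4 of 11 tested members that did not pass. The longer form TGACTCAGC was in 0 of the 52 promoters, beside 0.456% of all, and the CCAAT box, read as CCAAT, in 36.5%, beside 32.0%. A match of letters is a description and not a bound site. The sequences below are from RefSeq (GRCh38.p14), 5′ to 3′ on the strand of the gene and ending at the base before its start, with CACGTG and TGACNNNGC on either strand in capitals. No 2 of these matches overlap.
PSME3, chr17:42833147-42833396, plus strand: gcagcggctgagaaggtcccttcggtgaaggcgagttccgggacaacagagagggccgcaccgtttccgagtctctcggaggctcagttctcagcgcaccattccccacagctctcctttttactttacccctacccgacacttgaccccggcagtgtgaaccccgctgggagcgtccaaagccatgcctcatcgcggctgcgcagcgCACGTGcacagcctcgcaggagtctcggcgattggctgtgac
PSMB3, chr17:38752491-38752740, plus strand: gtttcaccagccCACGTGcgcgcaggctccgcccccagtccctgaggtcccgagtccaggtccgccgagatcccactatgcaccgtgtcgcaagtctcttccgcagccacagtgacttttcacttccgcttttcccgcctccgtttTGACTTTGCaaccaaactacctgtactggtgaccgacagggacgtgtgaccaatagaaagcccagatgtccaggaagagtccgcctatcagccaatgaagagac
PSMD9, chr12:121888540-121888789, plus strand: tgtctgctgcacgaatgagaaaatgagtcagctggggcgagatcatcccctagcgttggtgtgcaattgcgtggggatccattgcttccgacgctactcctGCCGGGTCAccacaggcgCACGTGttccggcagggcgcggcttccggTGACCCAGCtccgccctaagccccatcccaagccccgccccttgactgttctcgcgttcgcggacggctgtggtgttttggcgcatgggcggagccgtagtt
PSMG1, chr21:39183452-39183701, minus strand: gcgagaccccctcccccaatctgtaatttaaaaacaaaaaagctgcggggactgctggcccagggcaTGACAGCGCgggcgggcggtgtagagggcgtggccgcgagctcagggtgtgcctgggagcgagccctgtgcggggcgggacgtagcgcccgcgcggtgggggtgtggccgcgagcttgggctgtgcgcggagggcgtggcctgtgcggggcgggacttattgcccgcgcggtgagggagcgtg
The E-box of PSME3 lies close to the start and that of PSMB3 at the far end of the window. PSMD9 has an E-box between a pair of TGACNNNGC matches, and PSMG1 has a single TGACNNNGC match and no E-box.

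Genes that work with the proteasome were examined as lists written from general knowledge. Of 11 other proteins that bind it, 3 fell and 8 did not pass, with a list median of -0.04, where 15.5% of all tested genes fell and 13.8% rose. They were UCHL5 and USP14, the deubiquitinases of the cap, which fell by 0.31 (SE 0.055; edgeR adjusted p = 0.000200) and 0.24 (SE 0.052; edgeR adjusted p = 0.000985), and TXNL1, a thioredoxin-like protein on the cap, by 0.25 (SE 0.050; edgeR adjusted p = 0.000659). With the correction UCHL5 and TXNL1 fell by 0.16 and 0.17, and USP14 did not pass (-0.11, edgeR adjusted p = 0.0723). IPO9, named for this change after its values were seen, went from -0.10 (edgeR adjusted p = 0.116) to -0.18 with the correction and then passed as lower (0.00160). Subunits of the cap in this list whose symbols lie outside the rule, ADRM1 and SHFM1, did not pass, at 0.00 and -0.15, and stood at -0.08 and 0.08 with the correction.

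Of 9 genes of the pathway through which NRF1 induces proteasome genes, 2 fell and 1 rose, counts near the 15.5% and 13.8% of all tested genes. NFE2L2 went from 70.2, 62.9 and 63.1 CPM in DMSO to 57.0, 53.8 and 54.4 CPM in DOX, a fall by 0.25 (SE 0.057; edgeR adjusted p = 0.00195). With the correction NFE2L2 fell by 0.16 (edgeR adjusted p = 0.0281). NFE2L1 itself was at 203, 206 and 204 CPM and at 220, 208 and 214 CPM, and did not pass (log2 fold change 0.07; edgeR adjusted p = 0.317), although its DOX values were all above its DMSO values, and with the correction it stood at -0.03. DDI2, the protease that activates NRF1, fell by 0.14 (SE 0.054; edgeR adjusted p = 0.0495), a call lost with library size alone (0.201), with upper-quartile scaling (0.204), and without DMSO replicate 1 (0.152), DMSO replicate 3 (0.166), DOX replicate 1 (0.167), DOX replicate 2 (0.0642) or DOX replicate 3 (0.116). SYVN1, a ubiquitin ligase of the endoplasmic reticulum, rose by 0.14 (SE 0.049; edgeR adjusted p = 0.0304), but not with the correction (0.04, edgeR adjusted p = 0.538), with no filter on low counts (0.102), or without DMSO replicate 1 (0.145), DOX replicate 1 (0.122), DOX replicate 2 (0.0731) or DOX replicate 3 (0.0561).

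Of 13 ubiquitin genes and factors that bring substrates to the proteasome, 3 fell and 0 rose, with a median of -0.07, beside 15.5% and 13.8% of all tested genes. RAD23B, which carries ubiquitylated proteins to the cap, fell by 0.22 (SE 0.048; edgeR adjusted p = 0.00115). RPS27A, a fusion of ubiquitin and a ribosomal protein, fell by 0.21 (SE 0.048; edgeR adjusted p = 0.00174) and stood at 0.01 with the correction. With the correction NPLOC4 passed as lower, at -0.12, and UBQLN2 as higher, at 0.18, where neither passed without it.

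Of 12 genes of antigen presentation and interferon response, NLRC5, an activator of class I genes, rose by 0.24 (SE 0.070; edgeR adjusted p = 0.0115), and the other 11 did not pass, with a list median of 0.05, where 13.8% of all tested genes rose. NLRC5 did not pass with the correction, at 0.05, or when DMSO replicate 1 (edgeR adjusted p = 0.0738) or DOX replicate 2 (0.0536) was left out. TAP2 and HLA-B had the next smallest p-values, at -0.15 (edgeR adjusted p = 0.0708) and 0.12 (0.0855). TAP2 passed as lower without DMSO replicate 2 (0.0323) and with the correction (0.0214), and HLA-B as higher with library size alone (0.0201) and with upper-quartile scaling (0.0172). B2M, the light chain of class I molecules, went from -0.07 to 0.11 with the correction and then passed as higher (edgeR adjusted p = 0.0463). TAP1 lies next to PSMB9 and was looked at after its values were seen. TAP1 was at 55.9, 59.2 and 59.3 CPM in DMSO and at 60.0, 60.0 and 58.2 CPM in DOX, with groups that overlapped (log2 fold change 0.03; edgeR adjusted p = 0.708), where PSMB9 fell by 0.28, and TAP1 stood at -0.05 with the correction. The difference between these neighbours was not tested.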

How the data were processed

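RNA-seq of 6 samples (3 DMSO, 3 DOX) was analysed from 2 tables. The authors deposited raw counts of reads per gene, not normalized. The build hg19 and the tools STAR 2.5.2a, featureCounts and DESeq2 1.12.4 appear, per the submitters' processing notes, with no stated role. Neither the annotation nor the strand setting is given in the sources used here, which leaves overlapping and near-identical genes uncertain. The authors also deposited their DESeq2 comparison, where each gene has its normalized signal averaged over samples, its log2 fold change with SE, the Wald score, and raw and adjusted p-values.

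Genes were kept with filterByExpr (15492 of 63677) and tested with edgeR 4.0.16 (R 4.3.3) by the quasi-likelihood test, TMM scaling, treatment as the only term, and Benjamini-Hochberg adjustment over all tested genes, with calls at an adjusted p under 0.05. DESeq2 1.42.0 was an alternative. The method was tested on simulated data drawn without a trend with GC content, so that test does not cover the trend found here. Its pass mark for detection was set on changes larger than the median change of the members. SE is the size of the log2 fold change over the square root of F. Ratios used a prior count of 2. GC content and length came from the longest GENCODE 29 transcript (GRCh38, no coordinates used), and splines with 5 degrees of freedom, fitted to genes with mean log2 CPM above 2, gave an offset for 15036 genes.

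Values per sample are given for the catalytic subunits, chaperones and activators, and in other classes for the 2 called members with the largest fold change and the member with the smallest. Of each pathway list the 3 genes with the smallest p are named, except 1 that is not reported here, and ADRM1, SHFM1, IPO9, NFE2L1, NPLOC4, UBQLN2, B2M and TAP1 were added after their values were seen. The members, lists, motifs and alternatives were chosen with earlier results of these data known. Replicates of a group differed by more than sampling noise (chi-square per degree of freedom 2.71 to 7.11).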

Additional observations from a re-analysis of the deposited data

How the results depend on the processing

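Of the 34 members that fell, 17 were called lower in each alternative that gave a value, PSMB3 among them without a value after the correction for GC content and length. The count of 34 was 34 with DESeq2 and with no filter on low counts, 28 under upper-quartile scaling, 29 under library size alone, and 27 to 35 with 1 sample left out. No member was called higher in any of the 14 alternatives. With the GC content and length correction 20 members, 8 core genes, 4 cap genes and 3 chaperones were called lower, beside 11.4% of all genes. The cap count was 6 under upper-quartile scaling, 6 under library size alone, and 5 to 11 with 1 sample left out. PSMC6, PSMD6, PSMD7, PSMD13 and PSMA5 lost their calls under both of these scalings, and PSMB2 under upper-quartile scaling alone.

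Among the genes named, these values changed sign. PSMC6, PSMA5 and RPS27A were called lower before the change of sign and B2M was called higher after it, and the others passed on neither side. After the correction PSMC6 was at 0.0037, PSMD4 at 0.019, PSMA5 at 0.012, PSMF1 at 0.022 and RPS27A at 0.0059, with B2M at 0.11, NFE2L1 at -0.029, TAP1 at -0.054, SHFM1 at 0.081 and ADRM1 at -0.083. ADRM1, at 0.00084 otherwise, also turned with DESeq2 (-0.0094), with no filter on low counts (-0.015), and without DMSO replicate 1 (-0.012), DMSO replicate 3 (-0.041) or DOX replicate 1 (-0.023). Under upper-quartile scaling PSME4 was at 0.00052, PSMG4 at 0.034 and PSMF1 at 0.038, and under library size alone PSMG4 was at 0.030 and PSMF1 at 0.033. With samples left out, PSMG3 ran from -0.11 to 0.0011, PSMG4 from -0.073 to 0.097, PSMB10 from -0.13 to 0.011 and PSMF1 from -0.038 to 0.0078. The cause of these changes was not tested.

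Replicate numbers are shared between the groups, but same-numbered samples did not deviate together (correlations of -0.06, -0.23 and 0.09 for numbers 1, 2 and 3). The numbers were therefore not taken to pair the samples. Between samples of unlike number the correlations ran from -0.28 (DMSO replicate 3 with DOX replicate 1) to 0.32 (DMSO replicate 2 with DOX replicate 1). The cause of these shared deviations was not tested. With the replicate block 32 members, 13 core genes, 9 cap genes and 5 chaperones were called lower, without PSMD13 and PSMA5. With the replicate block and the correction together 19 members, 7 core genes, 4 cap genes and 3 chaperones were called lower, and NFE2L1, TAP1, SHFM1 and ADRM1 were at -0.029, -0.054, 0.082 and -0.083, and PSMC6, PSMD4, PSMA5, PSMF1 and RPS27A at 0.0044, 0.020, 0.015, 0.022 and 0.0057.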
